A study of Mus musculus with 18 samples.

Results

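The receptor axis described here is a set of 10 genes: the receptor chains Il2rb, Il2rg, Il2ra, Il15ra, Il7r and Il4ra, the kinases Jak1 and Jak3, and the transcription factors Stat5a and Stat5b. They were chosen by gene symbol, and all 10 were among the 46983 genes of the table. Their RNA was measured in 18 libraries of mouse CD8 T cells. The wild-type mice gave 4 libraries of naive cells and 4 of memory-phenotype cells. The Dock2-deficient mice, which carry the Hsd allele of Dock2 on both chromosomes (Dock2-Hsd/Hsd in the labels), gave 5 and 5. Naive cells were CD44lo and memory-phenotype cells CD44hi, that is, low or high for the surface glycoprotein CD44. No treatment or growth step was recorded. All libraries carried the strain name C57BL/6J, but the descriptions of the Dock2-deficient ones read C57L6NHsd, so substrain and genotype cannot be told apart. Age and sex were not in the labels, nor was it stated whether replicates came from separate animals, so p-values measure the spread between libraries, part of which may be technical.

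Receptors for IL-2, IL-15, IL-7 and IL-4 are built around the common gamma chain, encoded by Il2rg, which is joined by Il2rb for IL-2 and IL-15, by Il7r for IL-7 and by Il4ra for IL-4. JAK1 binds the cytokine-specific chain and JAK3 the gamma chain, and together they phosphorylate STAT proteins, chiefly STAT5A and STAT5B downstream of IL-2, IL-15 and IL-7. In CD8 T cells IL-7 sustains naive cells, and IL-15, shown to the T cell by IL-15 receptor alpha on neighbouring cells, sustains memory cells.

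Values are normalized expected counts, the reads assigned to a gene after scaling between libraries. Depth ran from 2215987 to 8257768 expected reads per library. The 7 CD8 T cell markers (Cd8a, Cd8b1, Cd3d, Cd3e, Cd3g, Trac and Cd247) summed to between 6513 and 13840 in every library. Dock2 RNA was present in all 18 libraries (61.0 to 844), and its protein was not measured. Xist was between 1820.4 and 3887 in all 8 wild-type libraries and in library 1 of each Dock2-deficient group and at most 5.44 in the other 8, so sex largely moved with genotype. Wild-type memory library 4 stood apart with the highest Dock2 value (844, the next being 514). Its share of ribosomal Rn18s-rs5 was also the highest (69.4%), but that of Dock2-deficient memory library 4 was close (69.0%). Dock2-deficient memory library 5 stood apart with the lowest of both (Rn18s-rs5 37.0% and Dock2 61.0). Several values that rest on wild-type memory library 4 or Dock2-deficient memory library 5 are also given without them. In bulk RNA, fewer cells of a type and less RNA per cell cannot be told apart.

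Memory-phenotype cells of both genotypes held more Il2rb and Il4ra RNA than naive cells, and no other member passed limma's test in either genotype. Il2rb rose 12.3-fold between the group means in wild type and 6.56-fold in Dock2-deficient mice, and Il4ra 1.76-fold and 1.83-fold. The test was run on log2(value + 1) over the 9437 genes that reached a value of 10 in 4 or more libraries, and a gene was called at a Benjamini-Hochberg adjusted p under 0.05. Of the 10 members 9 passed this filter and Il2ra did not. In wild type, 2 of the 9 were called higher and 0 lower, against 2.52% of all genes tested (1.88% higher and 0.646% lower). In Dock2-deficient mice 2 were higher and 0 lower, against 2.82% of all genes (1.77% higher and 1.05% lower). The median log2 fold change of the 9 was 0.28 in wild type and 0.46 in Dock2-deficient mice, beside -0.02 and -0.01 over all genes tested. In each genotype 5 of the 9 had an unadjusted p under 0.05, as did 12.1% of all genes in wild type and 13.4% in Dock2-deficient mice. The members were chosen with earlier results of these data known, so these counts and medians describe the set and are no independent evidence about it.

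**Figure D1:**
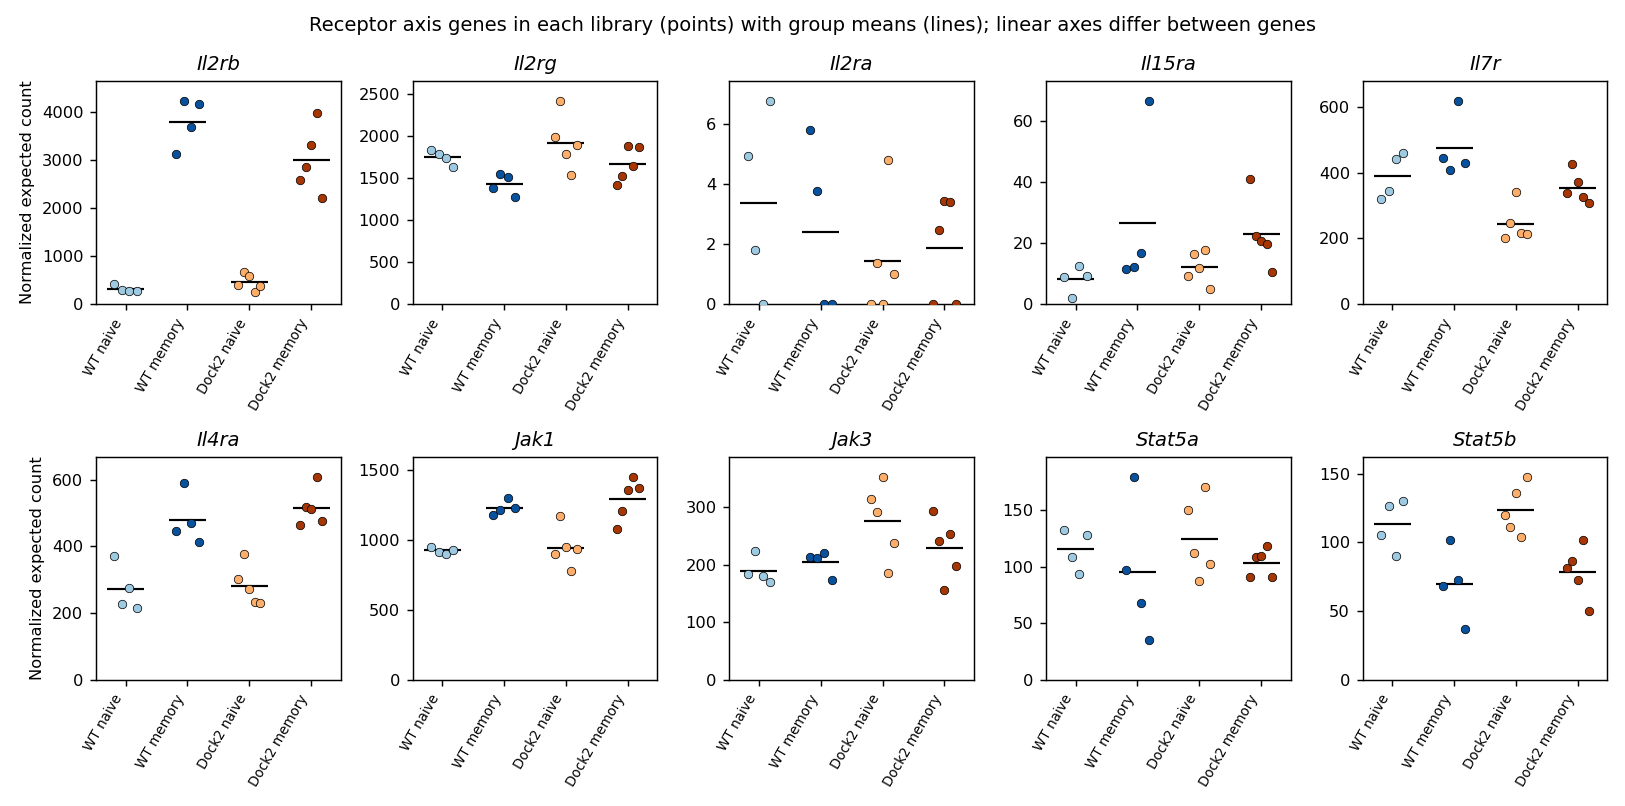
Normalized expected count (linear axes from 0, which differ between genes) of the 10 axis genes in each library (points) with the mean of each group (lines). Il2rb and Il4ra lie higher in every memory library than in every naive library of the same genotype, and Il2ra stays at or below 6.78 throughout.

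Il2rb (ENSMUSG00000068227, chromosome 15, 78479256 to 78495271, minus strand, mm10) encodes the beta chain that IL-2 and IL-15 receptors share and that takes part in signalling. Its value was 416, 293, 266 and 265 among wild-type naive libraries and 3130.3, 4229, 3683 and 4175 among wild-type memory libraries. In Dock2-deficient cells it was 400.1, 675, 581, 244 and 382 in the naive libraries and 2589.9, 2861, 3317, 3992 and 2209.6 in the memory libraries. The lowest memory library of either genotype thus stood above the highest naive library of both. The means were 309.9 ± 71.7 (SD, n = 4) in wild-type naive, 3804 ± 512 (n = 4) in wild-type memory, 456 ± 171 (n = 5) in Dock2-deficient naive and 2994 ± 688 (n = 5) in Dock2-deficient memory cells. The log2 fold change from naive to memory was 3.63 ± 0.27 (SE; limma adjusted p = 1.55e-08) in wild type and 2.77 ± 0.24 (limma adjusted p = 1.46e-07) in Dock2-deficient mice. Both calls held in all 29 alternative analyses, with log2 fold changes between 3.56 and 3.84 and between 2.34 and 2.93.

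The size of the Il2rb difference was set against genotype in the same fit. The interaction, that is the log2 fold change in Dock2-deficient mice minus that in wild type, was -0.86 ± 0.36 (95% interval -1.62 to -0.10), but limma's adjusted p was 0.819. It kept its sign in all 28 alternatives (-1.504 to -0.70) and passed in none of them. Within naive cells Il2rb differed between genotypes by 0.50 (95% interval -0.04 to 1.03, limma adjusted p = 0.855) and within memory cells by -0.37 (-0.90 to 0.17, limma adjusted p = 0.470). The highest Dock2-deficient naive libraries, 2 and 3, lay above all 4 wild-type naive libraries, while libraries 1, 4 and 5 lay within or below their range.

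Per kb of exon, the scale on which genes of different length can be compared, Il2rb changed place among the members. In wild-type naive cells it was the fourth gene, at 72.3 ± 16.7 per kb (SD, n = 4), after Il2rg (734 ± 35.97), Jak1 (128 ± 3.15) and Il7r (84.1 ± 15.2). In wild-type memory cells it was the first, at 887 ± 119, with Il2rg at 599 ± 53.7. In Dock2-deficient memory cells Il2rb (698 ± 161, n = 5) and Il2rg (699 ± 85.8) stood level. Within a library the ratio of Il2rb to Il2rg per kb ran from 0.0847 to 0.126 in wild-type naive, 0.0880 to 0.181 in Dock2-deficient naive, 1.26 to 1.83 in wild-type memory and 0.658 to 1.35 in Dock2-deficient memory libraries. With the length of the longest transcript in place of all exons, Il2rb remained the first in wild-type memory cells (907 against 856 for Il2rg) but lay below Il2rg in Dock2-deficient memory cells (714 against 999).

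**Figure D2:**
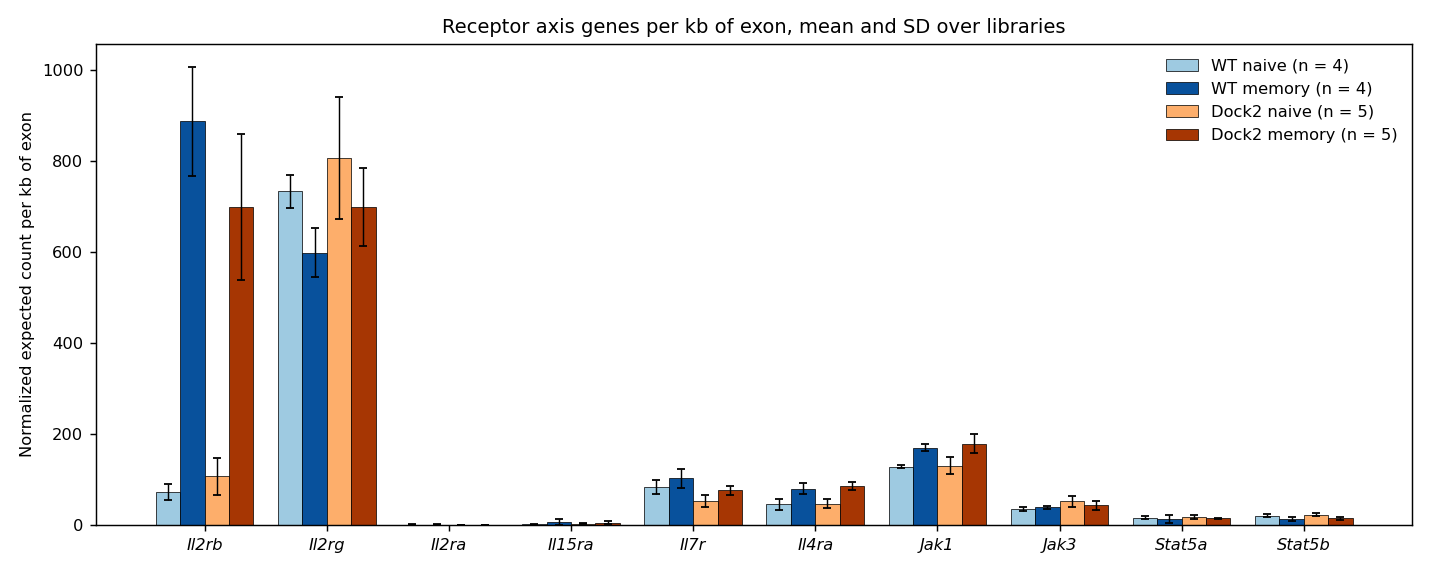
Mean normalized expected count per kb of exon (linear axis from 0) of the 10 axis genes in the 4 groups, with bars of 1 SD over 4 or 5 libraries. Il2rg leads in both naive groups, Il2rb exceeds it in wild-type memory cells (887 against 599) and both stand near 699 in Dock2-deficient memory cells.

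Il4ra (ENSMUSG00000030748, chromosome 7, 125552120 to 125579474, plus strand) encodes the chain that pairs with the gamma chain to bind IL-4. It was 372, 228, 277 and 215 among wild-type naive libraries and 446, 591, 471 and 414 among wild-type memory libraries. Its values were 303.7, 377, 271, 232 and 229 among Dock2-deficient naive libraries and 465, 519, 511, 609 and 476 among Dock2-deficient memory libraries. Every memory library of either genotype lay above every naive library, and within a state the genotypes overlapped. In Dock2-deficient mice the log2 fold change was 0.89 ± 0.19 (limma adjusted p = 0.00713), a call made in all 29 alternatives. In wild type it was 0.84 ± 0.21 (limma adjusted p = 0.0298). This wild-type call was lost in 10 of 29 alternatives, among them the fits without naive library 2, 3 or 4 or without memory library 1, 2 or 3 (adjusted p up to 0.119, log2 fold changes 0.73 to 0.996 over all left-out libraries). It was also lost with replicate number as a block (adjusted p = 0.0948). An antisense gene model, Gm44876, covers 9.51% of the Il4ra exons and was at most 1.08.

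The promoter of Il4ra is shown because Il4ra was the called member with a window in the RefSeq table of the GRCm38.p6 assembly, which shares its coordinates with mm10. The window spans 250 bases before to 50 bases after an annotated start (chr7:125552021-125552320, plus strand). Neither a STAT motif (TTCNNNGAA) nor a T-box motif (AGGTGT) was found in it on either strand, so nothing is in capitals.
Il4ra promoter: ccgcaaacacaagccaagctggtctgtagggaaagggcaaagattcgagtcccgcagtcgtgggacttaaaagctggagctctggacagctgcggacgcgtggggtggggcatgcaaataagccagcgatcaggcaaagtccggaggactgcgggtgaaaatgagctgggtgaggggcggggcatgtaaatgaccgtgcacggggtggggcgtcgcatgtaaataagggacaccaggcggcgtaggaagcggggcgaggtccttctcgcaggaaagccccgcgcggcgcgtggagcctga
Among all 32851 windows of 300 bases the STAT motif occurred in 8.30% and the T-box motif in 13.7%. Windows were found for 9 of the 10 members, all but Il2rb, 12 windows in all. The STAT motif was in 1 of the 12 and the T-box motif in 3, one window each of Il15ra, Il2ra and Stat5a. These matches describe letters and show no binding.

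Il2rg (ENSMUSG00000031304, chromosome X, 101264378 to 101268255, minus strand), the common gamma chain gene, encodes the chain these receptors share. Its value was 1833, 1792, 1745 and 1634 in wild-type naive and 1379, 1553, 1512 and 1273 in wild-type memory libraries. In Dock2-deficient cells it was 1986, 2417, 1784, 1542 and 1894 in naive and 1420.1, 1523, 1878, 1651 and 1869.9 in memory libraries. The 4 wild-type memory libraries lay below the 4 naive ones, although limma did not call the log2 fold change of -0.30 ± 0.18 (limma adjusted p = 0.584). The Dock2-deficient groups overlapped (-0.20 ± 0.16, limma adjusted p = 0.653). With quantile normalization the Dock2-deficient value was -0.64, still uncalled. A gene model with the same strand, Gm20489, covers 30.5% of the Il2rg exons and was listed at 0 in all libraries.

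Il7r (ENSMUSG00000003882, chromosome 15, 9505788 to 9530176, minus strand) encodes the IL-7 receptor alpha chain. It was 319, 344, 443 and 462 in wild-type naive libraries and 447, 411, 619 and 430.1 in wild-type memory libraries. Its values were 202, 249, 343, 217 and 214 in Dock2-deficient naive libraries and 339, 429, 373, 326 and 308.7 in Dock2-deficient memory libraries. The groups overlapped in each comparison. Of the Dock2-deficient naive libraries only library 3, at 343, reached the wild-type naive range. In naive cells the log2 difference, Dock2-deficient minus wild type, was -0.69 ± 0.19 (95% interval -1.09 to -0.28), the largest in size among the 9 tested members in either genotype comparison. It did not pass limma's test (adjusted p = 0.294, and 0.0742 to 0.999 over its 29 alternatives). In memory cells the difference was -0.41 ± 0.19 (-0.82 to -0.01, limma adjusted p = 0.304). From naive to memory the log2 fold change of Il7r was 0.28 ± 0.21 in wild type (limma adjusted p = 0.666) and 0.55 ± 0.18 in Dock2-deficient mice (limma adjusted p = 0.141). The latter was called only with library weights (0.73, adjusted p = 0.0131).

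The Il7r window (chr15:9529827-9530126, minus strand) is shown as the one member promoter with a STAT motif, which the capitals mark at bases 109 to 117. The pattern TTCNNNGAA is the same on both strands.
Il7r promoter: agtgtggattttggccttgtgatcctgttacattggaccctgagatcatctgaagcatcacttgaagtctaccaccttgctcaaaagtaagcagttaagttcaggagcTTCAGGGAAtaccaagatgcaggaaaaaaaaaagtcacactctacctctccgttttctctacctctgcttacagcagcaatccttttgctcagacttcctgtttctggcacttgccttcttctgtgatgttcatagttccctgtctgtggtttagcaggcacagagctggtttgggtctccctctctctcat

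**Figure D3:**
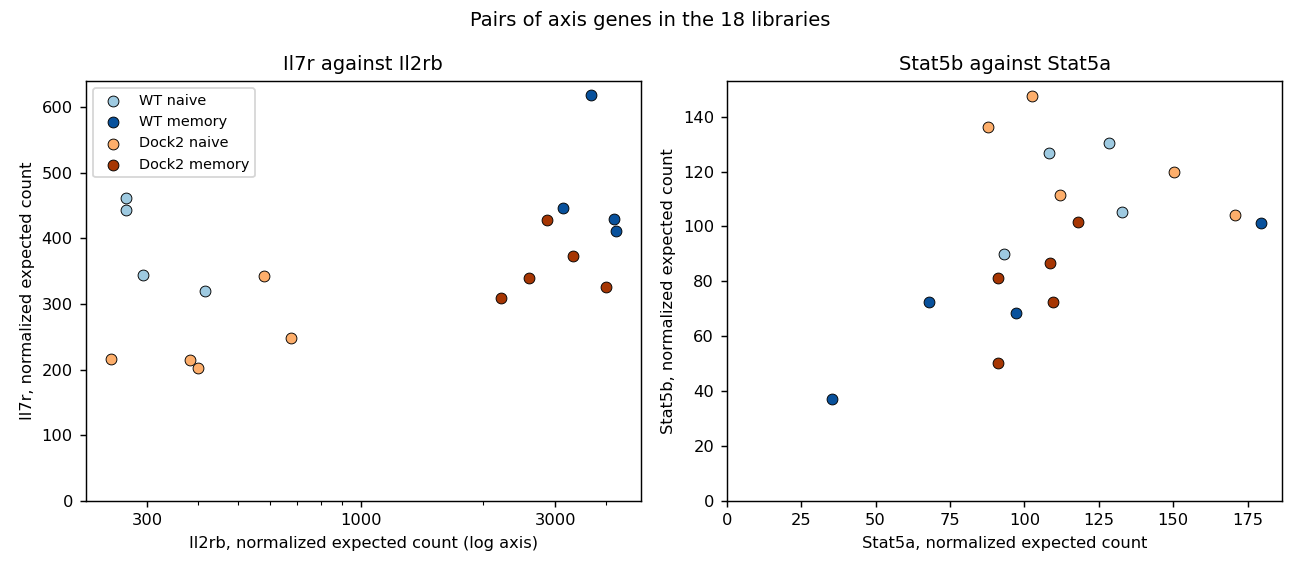
Left, Il7r (linear axis) against Il2rb (log axis) and right, Stat5b against Stat5a (linear axes), as normalized expected counts with 1 point per library. Il2rb splits naive from memory libraries with no overlap, whereas Il7r does not, and wild-type memory library 4 is the lowest point for both Stat5 genes (35.4 and 37.2).

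Il15ra and Il2ra encode the private alpha chains of the IL-15 and IL-2 receptors. Il15ra (ENSMUSG00000023206, chromosome 2, 11705290 to 11734317, plus strand) was low, at 8.81, 1.81, 12.6 and 9.03 in wild-type naive and 11.6, 12.0, 16.8 and 66.4 in wild-type memory libraries. In Dock2-deficient cells the naive libraries held 9.09, 16.3, 11.8, 17.6 and 4.98 and the memory libraries 40.8, 22.2, 20.6, 19.6 and 10.6. Wild-type memory library 4 held 66.4, with the next library of its group at 16.8. The log2 fold change was 1.43 ± 0.58 in wild type (limma adjusted p = 0.295) and 0.87 without that library, and 0.87 ± 0.52 in Dock2-deficient mice (limma adjusted p = 0.506). Il2ra (ENSMUSG00000026770, chromosome 2, 11642807 to 11693193, plus strand) was listed at 0 in 7 libraries, where a count of 0 allows up to 3 reads, a value of 1.54 to 5.33. Its highest value was 6.78, and no library had more than 9 reads of it. Exact two-sided permutation tests of Il2ra gave adjusted p = 0.81 in each of the 4 comparisons, so no difference was detectable at this depth. Its group means were 3.38 ± 3.05 (SD, n = 4), 2.40 ± 2.89 (n = 4), 1.43 ± 1.98 (n = 5) and 1.86 ± 1.74 (n = 5) in wild-type naive and memory and Dock2-deficient naive and memory libraries, in that order.

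One Il15ra window (chr2:11705462-11705761, plus strand) is shown because it holds the T-box motif (capitals, bases 28 to 33), the letters bound by the family of Tbx21 and Eomes, whose values follow with the wider pathway.
Il15ra promoter: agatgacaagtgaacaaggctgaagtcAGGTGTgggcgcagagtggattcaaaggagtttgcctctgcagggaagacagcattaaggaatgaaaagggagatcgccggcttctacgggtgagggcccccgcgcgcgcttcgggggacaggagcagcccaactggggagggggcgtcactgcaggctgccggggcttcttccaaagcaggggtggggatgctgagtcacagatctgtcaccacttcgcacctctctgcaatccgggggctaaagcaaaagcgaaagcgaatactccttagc

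Of the kinases, Jak1 (ENSMUSG00000028530, chromosome 4, 101152367 to 101265282, minus strand) was the more abundant per kb. Jak1 was 951, 915, 897 and 929 in wild-type naive and 1176, 1210.3, 1297 and 1227 in wild-type memory libraries. In Dock2-deficient cells the naive libraries held 901, 1166, 946, 774 and 930.02 and the memory libraries 1077, 1208, 1353, 1448 and 1368. The wild-type groups did not overlap, and in Dock2-deficient mice naive library 2 lay above memory library 1. The log2 fold changes of 0.41 ± 0.17 in wild type (limma adjusted p = 0.310) and 0.46 ± 0.15 in Dock2-deficient mice (limma adjusted p = 0.141) did not pass. The Dock2-deficient value was 0.06 with quantile normalization. The median of all genes moved by less than 0.1 under that scaling.

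Jak3 (ENSMUSG00000031805, chromosome 8, 71676296 to 71690575, plus strand), the kinase of the gamma chain, was 184, 224, 179.8 and 170.1 in wild-type naive and 214, 211, 222 and 173 in wild-type memory libraries. In Dock2-deficient cells the naive libraries held 316, 292, 353, 185 and 239 and the memory libraries 295, 242, 156, 254 and 198. Dock2-deficient naive libraries 1, 2, 3 and 5 lay above all wild-type naive libraries and library 4 within their range. The log2 difference between genotypes in naive cells was 0.52 ± 0.21 (95% interval 0.08 to 0.96) and did not pass (limma adjusted p = 0.700). Per kb, Jak1 exceeded Jak3 in every library, with ratios from 1.98 to 6.40. Insl3, a hormone gene on the same strand, shares 7.55% of the Jak3 exons and was at most 11.7 in any library. The read values of Jak3 were whole in 1 of 18 libraries, so part of the reads were assigned by estimate.

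Stat5a (ENSMUSG00000004043, chromosome 11, 100859351 to 100885169, plus strand) and Stat5b (ENSMUSG00000020919, chromosome 11, 100780731 to 100850724, minus strand) are neighbouring copies of one transcription factor gene. Their coding sequences of 2391 and 2358 bases were identical at 90.8% of 2291 aligned bases, with a longest identical run of 324 bases. Of the 50-base windows of Stat5a, 25.96% occur unchanged in Stat5b. Neither gene had a whole read value in any library, so how reads were divided between the copies is an estimate. The stretch from coding base 551 to 670 of both genes (GENCODE M21) is shown because the genes differ in it at 1 base, in capitals. A read within the stretch that did not cover this base could not be told apart.
Stat5a coding stretch: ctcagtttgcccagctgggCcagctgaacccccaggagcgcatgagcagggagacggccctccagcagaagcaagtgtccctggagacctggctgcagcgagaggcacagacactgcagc
Stat5b coding stretch: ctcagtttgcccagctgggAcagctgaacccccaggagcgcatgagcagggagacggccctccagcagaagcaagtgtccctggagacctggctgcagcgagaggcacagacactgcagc
The promoters also hold a matching stretch of 65 bases with 58 identical (Stat5a chr11:100860418-100860482, plus strand, and Stat5b chr11:100822563-100822627, minus strand), shown because it is the best local match between windows of the pair. The capitals mark the differing bases.
Stat5a promoter stretch: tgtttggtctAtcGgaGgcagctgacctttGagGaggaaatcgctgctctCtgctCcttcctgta
Stat5b promoter stretch: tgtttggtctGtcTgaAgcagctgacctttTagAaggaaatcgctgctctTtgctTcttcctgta

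Stat5a was 133, 108, 93.3 and 128 in wild-type naive and 97.3, 179.5, 68.0 and 35.4 in wild-type memory libraries. In Dock2-deficient cells the naive libraries held 150.2, 112, 87.6, 171 and 102 and the memory libraries 91.0, 109, 109.8, 118 and 91.2. The groups overlapped in every comparison, and wild-type memory libraries spread most, with libraries 2 and 4 at the ends. Stat5b was 105, 127, 89.8 and 130.3 in wild-type naive and 68.5, 101, 72.6 and 37.2 in wild-type memory libraries. In Dock2-deficient cells the naive libraries held 119.9, 111, 136, 104 and 147 and the memory libraries 81.2, 86.5, 72.4, 102 and 50.3. All Dock2-deficient memory libraries lay below all Dock2-deficient naive ones. The Stat5b log2 fold changes from naive to memory were -0.76 ± 0.27 in wild type (limma adjusted p = 0.193) and -0.68 ± 0.24 in Dock2-deficient mice (limma adjusted p = 0.188), neither of them called. Without wild-type memory library 4 the wild-type value was -0.49, and that of Stat5a went from -0.50 to -0.11. The sum of both genes, which does not depend on the division of reads between them, ran from 183 to 259 in wild-type naive, 72.6 to 281 in wild-type memory, 224 to 275 in Dock2-deficient naive and 142 to 219.6 in Dock2-deficient memory libraries. The Dock2-deficient sums did not overlap between states, and the wild-type sums did. Stat3 on the opposite strand shares 1.01% of the Stat5a exons.

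**Figure D4:**
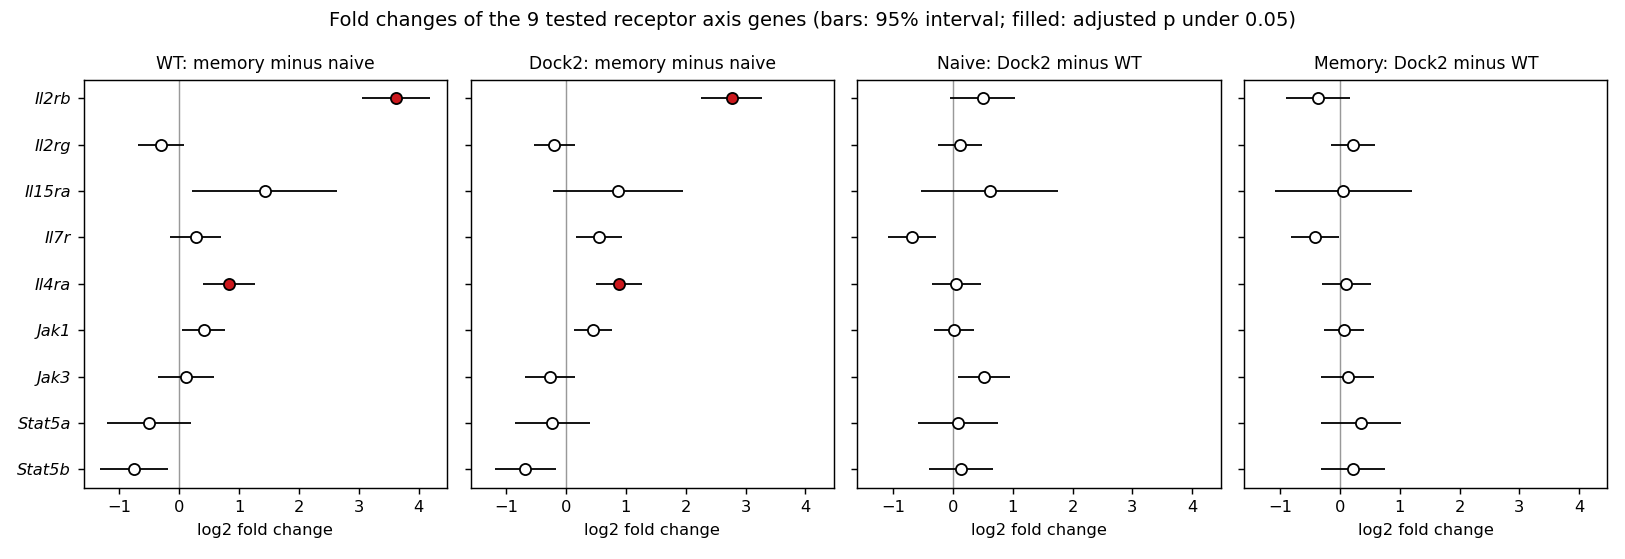
Log2 fold change (points, linear axis) with 95% interval (bars) of the 9 tested axis genes in the 4 comparisons of a pair of groups, filled where limma's adjusted p was under 0.05. Only Il2rb (3.63 and 2.77) and Il4ra (0.84 and 0.89) are filled, in the memory comparisons.

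Taking overlap in place of the test, the libraries of wild-type memory and naive cells did not overlap for 4 of the 10 members (Il2rb, Il4ra and Jak1 above, Il2rg below), against 8.27% of the genes tested. In Dock2-deficient mice they did not overlap for 3 (Il2rb and Il4ra above, Stat5b below), against 3.93%. Between genotypes the groups overlapped for all 10 members in naive cells and in memory cells, where 2.71% and 4.44% of the genes tested did not overlap.

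No member was called between genotypes. In naive cells 0 of 9 passed limma's test, against 0.138% of all genes (0.127% higher and 0.0106% lower), and 2 of 9, Il7r and Jak3, had an unadjusted p under 0.05, as did 6.10% of all genes. In memory cells 0 of 9 passed, against 0.053% (0.0318% higher and 0.0212% lower), and 1 of 9, Il7r, had an unadjusted p under 0.05, as did 16.4% of all genes. The interaction was called for 0 of 9, against 0.0318% of all genes (0.0106% higher and 0.0212% lower), and Il2rb alone had an unadjusted p under 0.05, as did 5.21% of all genes. The member medians were 0.12 in naive cells, 0.11 in memory cells and 0.05 for the interaction. With a term for sex read from Xist, the Il7r difference was -0.84 in naive and -0.57 in memory cells and that of Jak3 0.83 and 0.44, with no member called (adjusted p at least 0.787).

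Other genes of the pathway were taken from 6 lists, of which the negative regulators and STAT5 targets share Cish and Socs2. These lists too were chosen with earlier results of these data known. Their counts stand beside shares over all genes tested of 1.88% higher and 0.646% lower in wild type, of 1.77% higher and 1.05% lower in Dock2-deficient mice, and of 12.1% and 13.4% at an unadjusted p under 0.05. The 7 cytokine genes whose products bind these receptors (Il2, Il4, Il7, Il9, Il15, Il21 and Tslp) were all under the filter and listed at 0 in wild-type naive libraries. Their sum was at most 4.94 in any library. Of 6 other receptor chains and kinases 4 were tested and 0 called by limma in either memory comparison, with 0 at an unadjusted p under 0.05. Il21r, the IL-21 receptor gene, had log2 fold changes of -0.19 in wild type (limma adjusted p = 0.832) and 0.35 in Dock2-deficient mice (0.465). Of 15 adaptors and PI3K or MAPK genes 12 were tested and 0 called in either genotype, with 0 in wild type and 2 in Dock2-deficient mice at an unadjusted p under 0.05. Of 11 negative regulators 10 were tested. Wild type had 0 calls, with 2 at an unadjusted p under 0.05, and Dock2-deficient mice had 1. That gene was Ptpn2, a phosphatase that acts on JAK and STAT proteins, at 67.2 ± 20.3 in naive and 135 ± 40.8 in memory cells (SD, n = 5 each; log2 fold change 0.98, limma adjusted p = 0.0473). The Ptpn2 call was kept in 6 of the 18 fits with 1 library removed, with an adjusted p of up to 0.145 (naive library 2 removed). Without both libraries that stand apart the Ptpn2 value was 0.86 (limma adjusted p = 0.0891). Cish, a STAT5-induced inhibitor of the pathway, was 35.9 ± 16.3 in wild-type naive and 58.4 ± 36.1 in wild-type memory libraries and was not called (0.58, limma adjusted p = 0.742).

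Of 17 STAT5 target genes 13 were tested, with 2 higher and 0 lower in wild type and 3 higher and 0 lower in Dock2-deficient mice, where 1.88% and 1.77% of all genes were higher and 0.646% and 1.05% lower. The medians of their log2 fold changes were 0.58 and 0.19. Bcl2l1, which encodes the survival protein BCL-XL, was called in both: 20.4 ± 12.3 and 52.2 ± 11.4 in wild type (1.47, limma adjusted p = 0.0455) and 15.0 ± 7.69 and 65.2 ± 10.003 in Dock2-deficient mice (2.17, limma adjusted p = 5.19e-04). The wild-type call of Bcl2l1 was kept in 6 of the 18 fits with 1 library removed, with an adjusted p of up to 0.159 (naive library 3 removed). Without both libraries that stand apart the wild-type Bcl2l1 value was 1.55 (limma adjusted p = 0.0654). Ifng, the interferon gamma gene, rose in wild type from 0.632 ± 0.738 to 17.3 ± 7.44 (3.53, limma adjusted p = 0.0278). Removing naive library 1 or 2, or any memory library, ended the Ifng call (adjusted p up to 0.0974). In Dock2-deficient mice Ifng was 0.851 to 30.9 in memory libraries and did not pass (2.21, limma adjusted p = 0.176). Bcl2, a survival gene, was called in Dock2-deficient mice (1.14, limma adjusted p = 0.00213), as was Prf1, which encodes perforin (1.69, limma adjusted p = 1.36e-04). In wild type their log2 fold changes were 0.75 and 0.91 (limma adjusted p = 0.118 and 0.0907). Whether the naive-to-memory changes differed between genotypes was tested by the interaction, which called 0 of the 13, with 1 at an unadjusted p under 0.05. Between genotypes within a state limma also called 0 of the 13. In naive cells 2 of them had an unadjusted p under 0.05, as did 6.10% of all genes, and in memory cells 0, against 16.4%.

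Of 12 known regulators of Il7r and Il2rb 11 were tested, with 2 higher and 1 lower in wild type and 2 higher and 0 lower in Dock2-deficient mice, against the same shares of all genes. Tbx21 and Eomes, the T-box transcription factor genes that act on Il2rb, rose in both genotypes. Tbx21 was 18.2, 5.42, 2.79 and 3.39 in wild-type naive and 379.7, 569.9, 438 and 648 in wild-type memory libraries (log2 fold change 6.21, limma adjusted p = 1.98e-09). In Dock2-deficient cells the naive libraries held 42.7, 81.5, 28.7, 42.5 and 50.8 and the memory libraries 433, 331, 272, 517 and 292 (2.92, limma adjusted p = 1.96e-05). Every Dock2-deficient naive library held more Tbx21 than every wild-type naive library. Dock2-deficient naive library 2 was the highest of its group for Il2rb (675), Tbx21 (81.5) and Eomes (60.5). That library was also the highest of its group for Il2rg (2417), Il4ra (377) and Jak1 (1166). Library 3, the next for Il2rb (581), was the lowest of the group for Tbx21 (28.7). A link between these genes was not tested. The genotype difference of Tbx21 in naive cells was 2.82 (limma adjusted p = 6.46e-04), the single call among the 6 lists there. The call was lost when the fit held just the naive libraries (2.82, limma adjusted p = 0.0633). It was also lost with a sex term (2.90, limma adjusted p = 0.0670), and in neither case was the difference smaller. Sex largely moved with genotype. The interaction of Tbx21 was -3.29 (limma adjusted p = 0.0287), and it was not called with the replicate block (0.146). The call was kept in 5 of the 18 fits with 1 library removed, with an adjusted p of up to 0.0936 (Dock2-deficient naive library 4 removed). Without both libraries that stand apart the Tbx21 interaction was -3.09 (limma adjusted p = 0.114). Eomes rose from 10.8 ± 4.84 to 81.6 ± 13.5 in wild type (2.89, limma adjusted p = 8.54e-04) and from 24.9 ± 21.3 to 70.2 ± 8.88 in Dock2-deficient mice (1.86, limma adjusted p = 0.0176). Foxo1, which encodes an activator of Il7r, fell in wild type from 150.6 ± 20.3 to 82.0 ± 29.5 (-0.93, limma adjusted p = 0.0431). Without wild-type memory library 4 the Foxo1 value was -0.72 (limma adjusted p = 0.165), and the call was kept in 5 of the 18 such fits.

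**Figure D5:**
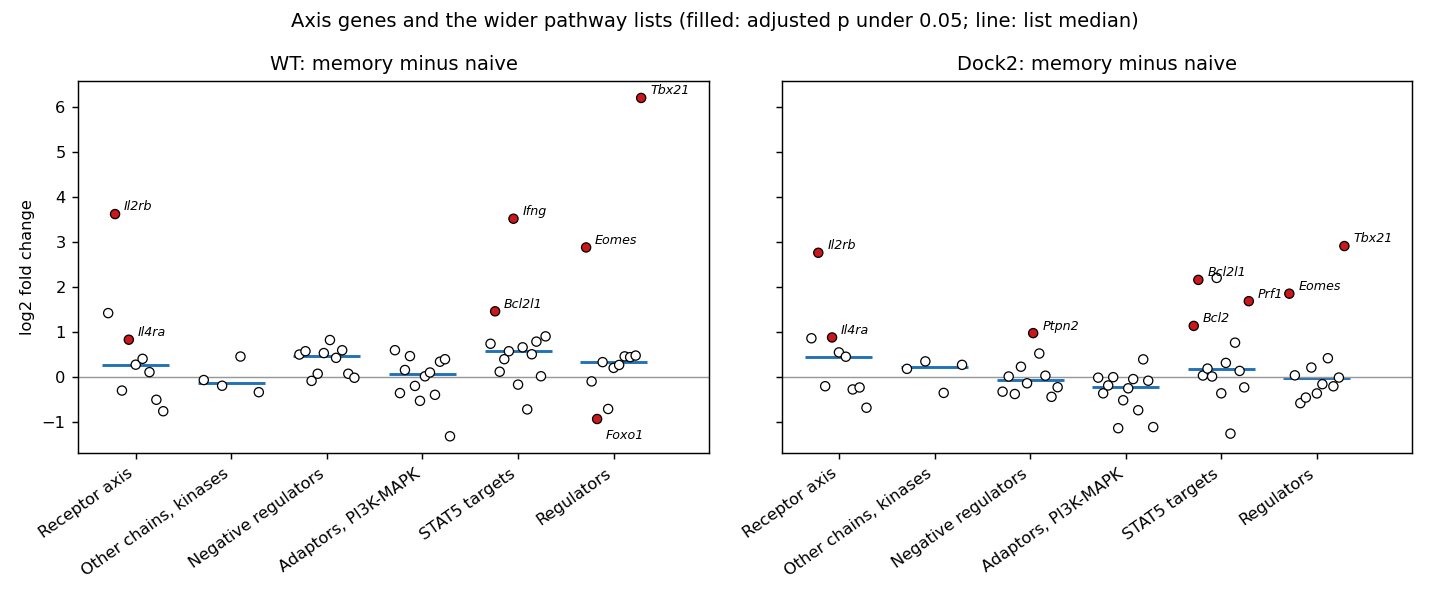
Log2 fold change from naive to memory (linear axis) of the tested genes of the axis and of the 5 pathway lists with tested genes, filled where limma's adjusted p was under 0.05, with list medians as lines. Named genes are those called, from Tbx21 (6.21 in wild type) to Foxo1 (-0.93).

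The genes whose pattern over the 18 libraries was most like that of Il2rb, by Pearson correlation of log2(value + 1) among 3621 genes, were Samd3 (r = 0.986), Plek (0.959) and St3gal6 (0.955). Samd3 and Plek had a value of 0 in every library of wild-type naive cells, and all 3 averaged over 100 in both memory groups, from 111 to 302.3. For Il4ra they were Gas7 (0.922), Il2rb (0.918) and Arsb (0.904). The 18 points span naive and memory libraries, between which these genes all differ, and the coefficients include that split.

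Markers of other cell types were read beside the memory comparisons, since natural killer cells, regulatory T cells and gamma delta T cells also use these receptors. The 6 natural killer and innate lymphocyte markers (Ncr1, Tyrobp, Klrb1f, Klrb1c, Fcer1g and Kit) summed to 3.39 to 7.23 in wild-type naive, 47.3 to 87.5 in wild-type memory, 0 to 12.2 in Dock2-deficient naive and 12.4 to 42.5 in Dock2-deficient memory libraries, and thus moved with Il2rb. In memory cells most of the mean sum came from Fcer1g and Klrb1c, the 2 of the 6 that were tested. Fcer1g, an Fc receptor subunit gene, rose from 0.452 ± 0.904 to 29.3 ± 12.9 in wild type (limma adjusted p = 3.49e-04) and from 1.40 ± 2.66 to 13.4 ± 7.55 in Dock2-deficient mice (limma adjusted p = 0.00670). Klrb1c, which encodes NK1.1, rose from 0.914 ± 1.11 to 20.3 ± 5.27 in wild type (limma adjusted p = 0.0111) and was 0.272 ± 0.608 and 6.70 ± 4.96 in Dock2-deficient mice (limma adjusted p = 0.114). Ncr1, a defining gene of natural killer cells, had a value of 0 in each of the 9 naive libraries and was at most 5.80 in memory libraries, where Il2rb was at least 2209.6. Tyrobp and Klrb1f were also at 0 throughout wild-type naive cells. The 7 CD4 and regulatory T cell markers summed to 19.9 to 41.1, 48.1 to 92.0, 16.1 to 76.2 and 15.5 to 55.3 in the same order of groups, with Cd4 and Zbtb7b at 0 throughout wild-type naive cells. Ikzf2, the 1 tested gene of this list, was 14.0 ± 7.27 in wild-type naive and 44.0 ± 26.9 in wild-type memory libraries, up to 78.1, and was not called (1.48, limma adjusted p = 0.321). Ctla4 reached 33.2 in a wild-type memory library, and Foxp3, which defines regulatory T cells, was at most 15.2, in a wild-type naive library. The 6 gamma delta T cell markers summed to 5.18 to 9.06, 40.7 to 64.7, 33.3 to 75.4 and 19.5 to 25.5, with Blk and Zbtb16 at 0 in wild-type naive and Sox13 and Blk at 0 in Dock2-deficient memory libraries. Trdc, the delta chain constant gene, rose in wild type from 3.98 ± 1.34 to 14.6 ± 4.54 (limma adjusted p = 0.0228) and fell in Dock2-deficient mice from 32.8 ± 11.5 to 10.4 ± 2.41 (limma adjusted p = 0.0146). In naive cells Trdc was higher in Dock2-deficient mice (limma adjusted p = 6.46e-04). Tcrg-C2, a gamma chain constant gene, rose in wild type from 2.41 ± 2.13 to 25.9 ± 5.89 (limma adjusted p = 5.83e-04) and was not called in Dock2-deficient mice (limma adjusted p = 0.880). The 5 B cell markers summed to between 23.1 and 57.5 in all libraries. The 6 myeloid markers summed to at most 13.6 outside Dock2-deficient memory libraries and to 7.10 to 69.9 within them, of which Itgax, an integrin gene, gave 7.10 to 68.0. The part of these cells in the values of the axis genes was not tested.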

How the data were processed

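RNA of sorted mouse CD8 T cells was extracted with Qiagen RNAeasy and made into Smartseq2 libraries, per the labels' protocols. This chemistry does not mark strand. The submitters' processing notes name bcl2fastq, FastQC, RSEM and the mm10 build, without versions. The deposited table holds 46983 genes as a signal value that the authors made from RSEM expected counts by scaling between libraries. Of the values above 0, 59.5% to 69.3% per library were whole reads within 0.005, so no count model was used. Of the gene IDs 46488 (98.9%) were in GENCODE M21.

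The test was that of limma 3.58.1 (R 4.3.3) on log2(value + 1), in 1 fit of 4 group means over 18 libraries (14 residual degrees of freedom), moderated with a variance trend. Genes reaching 10 in 4 or more libraries entered the fit (9437), p-values were two-sided and adjusted over all of them by the Benjamini-Hochberg method within each of 5 comparisons, and the threshold was 0.05. Il2ra, under the filter, was tested by exact two-sided permutation, adjusted over 4 tests. Fold changes on this scale understate the change of low genes. Counting limits cover counting error only. The comparisons of a genotype or state share libraries. Tests were checked on simulated data. Python 3.11.15, numpy 2.4.6, pandas 2.3.3, scipy 1.17.1, biopython 1.88 and matplotlib 3.10.9 were used.

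The members and lists were chosen with earlier results of these data known. All members are described. Other listed genes are named where called (at most 8 per list and comparison), or as the first 2 of a list where none was. For likeness, the 3 best correlated kept genes with a mean of at least 50 are named per called member. No within-group pair of libraries was identical (32 pairs, Pearson r 0.835 to 0.928). Alternatives were other pseudocounts, filters, scaling, variance models, weights, a sex term, a replicate block, fewer libraries and transcript length.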

Additional observations from a re-analysis of the deposited data

Results flagged for a closer look

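Il15ra in wild-type memory library 4 was 66.4, far above the next library of its group at 16.8. Il2ra in Dock2-deficient naive library 4 was 4.81, above the next of its group at 1.36. In each case the gap to the nearest library took up more of the range of the group (0.906 and 0.718) than Dixon's 95% limit. Of 40 groups tested, 2 met this limit, where chance gives about 1 in 20. The Il2ra value rests on at most 9 reads in any library.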

How the results depend on the processing

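Of the log2 fold changes recomputed for members and called pathway genes, 1537 kept their direction and side of the threshold, 92 lost a call, 1 gained one and 36 changed sign, all of the last among values without a call. The cause of these changes was not tested. The wild-type call of Il4ra was lost at an unchanged log2 fold change of 0.84 with no filter on low values (limma adjusted p = 0.0517), only the libraries compared (0.0783), no variance trend (0.0677) and the replicate block (0.0948). Leaving out each library gave 0.73 to 0.996. The labels do not say whether the replicate numbers pair the samples. Same-number correlations ran from -0.253 to 0.303, and some libraries but not all correlated best with their own number. Xist was high in library 1 of both Dock2-deficient groups. These values do not settle whether the samples were paired. With the block, the interaction was called for 0 genes.

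With library weights the number of genes called over the whole table was 377 in wild-type memory, 450 in Dock2-deficient memory, 40 between genotypes in memory cells and 5 for the interaction, from 238, 266, 5 and 3. Requiring a value of at least 50 gave 140 in wild-type memory, 2 between genotypes in memory cells and 1 for the interaction. Between genotypes in naive cells (13 called) it was 8 with only the libraries compared and 3 with a sex term. Between genotypes in memory cells it was 12 with a pseudocount of 5, 10 with no filter, 3 with only the libraries compared, 11 without the trend, 0 with a sex term and 3 to 12 with a library left out. For the interaction it was 0 with no filter, 9 without the trend, 0 without both libraries that stand apart and 0 to 2 with 1 library left out.

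The member values that changed sign were all uncalled. With quantile normalization, memory genotype values were -0.22 for Il2rg and -0.26 for Jak1, and interaction values were -0.31 for Il2rg, -0.0051 for Il4ra and -0.28 for Jak1. With a sex term, Jak1 was -0.13 in naive and -0.087 in memory cells. With library weights the interaction was 0.12 for Il15ra and -0.056 for Stat5b. Without both libraries that stand apart it was -0.00093 for Il2rg, 0.23 for Il15ra, -0.071 for Stat5a and -0.043 for Stat5b. With a pseudocount of 0.5 the Il2ra difference between genotypes in memory cells was 0.014. With a library left out, naive genotype values ran from -0.051 to 0.22 (Il4ra), -0.060 to 0.087 (Jak1) and -0.047 to 0.19 (Stat5a). Memory genotype values ran from -0.19 to 0.62 (Il15ra), -0.038 to 0.73 (Stat5a) and -0.058 to 0.42 (Stat5b). Interaction values ran from -0.82 to 0.00026 (Il15ra), -0.11 to 0.16 (Il4ra), -0.022 to 0.13 (Jak1), -0.12 to 0.65 (Stat5a) and -0.19 to 0.28 (Stat5b). Depth limits Il2ra and Il15ra most. With the longest transcript in place of all exons, 24 of 40 values per kb moved by more than 1 SD.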
